A study of Homo sapiens and Mus musculus with 10 samples.

Results

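The regions described here are those around microRNA genes of the human autosomes. GENCODE release 44 lists 1759 such genes. Each gene body was widened by 1 kb on either side, and 314 genes whose widened region lay within 1 kb of a protein-coding start were left out. The remaining 1445 regions are the members. Their hairpins have a median length of 80 bp (41 to 180 bp) and the regions a median length of 2080 bp. Neighbouring members can share a region: 302 regions overlap another one, and the 1445 merge into 1259 stretches of genome.

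The data are bulk short-read ATAC-seq of 10 libraries from 5 cell lines, with 2 libraries per line. ATAC-seq marks open chromatin as the places where the Tn5 transposase can insert adapters. The 8 human libraries used here came from untreated cultures of GM12878 (a B-lymphoblastoid line), HEK293T (embryonic kidney cells that carry the SV40 large T antigen), HFF1 (foreskin fibroblasts) and K562 (a leukaemia line with erythroid features). The mouse mESC libraries were not used, because the members are human genes. The labels give replicate numbers but do not say that replicates were separate cultures, so the p-values below measure only the spread between these libraries. Each line stands for 1 source of cells, so a difference between lines is not a difference between cell types in general.

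A library held between 50183 and 124544 autosomal peaks. The lowest background recovered from the lists, which rises with depth, was 0.465 and 0.466 in HEK293T and between 1.71 and 2.43 in the other lines, so HEK293T was the shallowest line by this measure. A member has a peak in a library when a deposited peak overlaps its region by at least 1 bp, and it is called in a line when both replicates have one. A region without a peak was below the list's threshold at that depth, which does not show that its chromatin was closed. Promoter peaks of the B cell genes CD79A, CD79B and MS4A1 were called in GM12878 only, TAL1 in K562 only, COL3A1 in HFF1 only, and PAX2 and LHX1 in HEK293T only. Other markers did not separate the lines: GFI1B and COL1A1 had a promoter peak in all 8 libraries, and HBG1 had none in any library, K562 included.

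MicroRNAs are short RNAs that pair with messenger RNAs through their seed and lower the output of those messages. A longer primary transcript, often a lncRNA or the intron of a protein-coding gene, is cut in the nucleus to a hairpin and in the cytoplasm to the mature strand. The hairpin can therefore lie far from the start of the transcript that carries it. Several microRNAs mark a lineage, such as miR-144 and miR-451a in red cell precursors, miR-142, miR-150 and miR-155 in blood cells, miR-199a and miR-143 in mesenchymal cells and miR-9 and miR-124 in neurons.

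RefSeq (GRCh38.p14) gave a mature sequence for 1312 of the 1445 members. The sequences of the microRNAs on which the comparison of lines turns are printed 5′ to 3′ with the seed, bases 2 to 8, in capitals. The blood group comes first, then the mesenchymal and neural groups, then let-7 and other named genes.
miR-144-3p: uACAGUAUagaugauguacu
miR-155-5p: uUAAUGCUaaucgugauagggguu
miR-142-3p: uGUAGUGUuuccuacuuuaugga
miR-199a-5p: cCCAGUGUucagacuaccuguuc
miR-199a-3p and miR-199b-3p: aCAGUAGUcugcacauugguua
miR-143-3p: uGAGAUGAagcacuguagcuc
miR-145-5p: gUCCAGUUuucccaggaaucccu
miR-9-5p: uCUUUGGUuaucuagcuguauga
miR-128-3p: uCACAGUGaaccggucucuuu
miR-137-3p: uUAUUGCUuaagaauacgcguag
let-7d-5p: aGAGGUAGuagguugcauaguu
let-7i-5p: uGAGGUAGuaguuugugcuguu
miR-34a-5p: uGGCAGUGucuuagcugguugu
miR-148a-3p: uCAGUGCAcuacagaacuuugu
miR-194-5p: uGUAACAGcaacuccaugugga
miR-210-3p: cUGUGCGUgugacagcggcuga
let-7d and let-7i share the seed GAGGUAG, and the other seeds in this set differ from each other.

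Most microRNA regions had no peak. Of the 1445 members, 1062 had no peak in any of the 8 libraries, 61 had one but were called in no line, and 1123 were called in no line in all. A peak was found at 204 members in each GM12878 library, at 106 and 104 in HEK293T, at 203 and 199 in HFF1, and at 166 and 159 in K562. The replicates of a line gave nearly the same number, and the HEK293T libraries lay below all others.

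Both replicates had a peak at 189 members in GM12878, which is 13.1% of them, against 5.92% of background tiles. The tiles are 1262627 windows of 2080 bp that cover the autosomes and obey the same rule on protein-coding starts. In HEK293T 87 members were called, or 6.02%, against 2.22% of tiles. In HFF1 179 were called, or 12.4%, against 7.1% of tiles. In K562 145 were called, or 10.0%, against 3.76% of tiles. The share was above that of the tiles in every line.

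**Figure D1:**
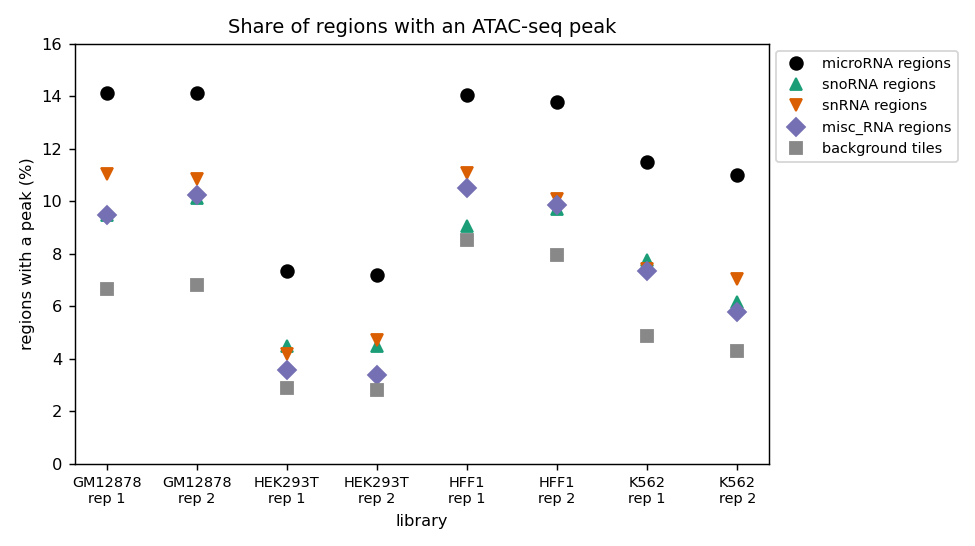
The percent of 1445 microRNA regions, of background tiles and of regions around 3 other small RNA gene types that hold a peak, by library of the 4 human lines. Each point is 1 library. MicroRNA regions lie above the tiles in all 8 libraries and above the other small RNA genes, and the HEK293T libraries are lowest throughout.

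The ratio of the share of members with a peak to the share of tiles was 2.09 ± 0.0311 in GM12878, 2.56 ± 0.00989 in HEK293T, 1.69 ± 0.0589 in HFF1 and 2.46 ± 0.136 in K562 (SD, n = 2 libraries each). It was lowest in HFF1, the line with the most open tiles. The log2 of this ratio varied more among the lines than within them (share of variance between lines 0.979, exact one-sided permutation p = 0.0190, adjusted p = 0.0254 over 4 tests). The share of members with a peak also varied more among the lines than within them, in another order, with HEK293T lowest (share of variance 0.997, exact one-sided permutation p = 0.00952, adjusted p = 0.0190). That p is the smallest the pairings of 8 libraries can give. Lines differ in depth as well. When the recovered pileups were thinned to the background level of HEK293T, 143.3 ± 2.28 members were called in GM12878, 106.5 ± 4.48 in HFF1 and 87.5 ± 3.88 in K562 (mean and SD of 11 random draws), beside 87 in HEK293T. The ratio of called members to called tiles was then 2.43 in GM12878, 2.72 in HEK293T, 1.96 in HFF1 and 3.22 in K562. Members remained above tiles in every line at equal background, and HFF1 remained lowest.

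Members exceeded tiles by 7.37 ± 0.100 percentage points in GM12878, 4.43 ± 0.0486 in HEK293T, 5.68 ± 0.206 in HFF1 and 6.66 ± 0.0504 in K562 (SD, n = 2). All 4 lines had the same sign, and the exact two-sided sign-flip p of 0.13 is the smallest that 4 lines allow. Regions around other small RNA genes, widened by the same 1 kb on either side, fell between. Around 761 snoRNA genes, called regions made up 8.94% in GM12878, 3.81% in HEK293T, 8.67% in HFF1 and 5.52% in K562. Around 1723 snRNA genes the shares were 10.1%, 3.83%, 9.29% and 6.09%, and around 1934 misc_RNA genes 8.74%, 2.95%, 8.79% and 5.43%.

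Base composition moved with this excess. The median GC content was 46.8% in the members and 39.6% in the tiles. Among regions of 40% to 50% GC, 10.4% of members and 7.47% of tiles were called in GM12878, 3.98% and 2.78% in HEK293T, 11.2% and 9.51% in HFF1, and 6.57% and 5.12% in K562. Among regions of at least 60% GC the pairs were 22.6% and 16.8% in GM12878, 14.5% and 8.92% in HEK293T, 20.8% and 17.4% in HFF1, and 22.6% and 16.4% in K562. In the 3 bands from 40% GC upward the ratio of members to tiles lay between 1.08 and 1.62, against 1.74 to 2.72 without bands. Below 40% GC, where 380 of the members lie, 8.16% of members and 3.55% of tiles were called in GM12878, 2.1% and 1.12% in HEK293T, 5.79% and 3.97% in HFF1, and 3.16% and 1.43% in K562. The ratio in that band was 2.30 in GM12878, above its 2.21 without bands, and 1.88, 1.46 and 2.21 in HEK293T, HFF1 and K562, below theirs. The members stayed above the tiles in every band.

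**Figure D2:**
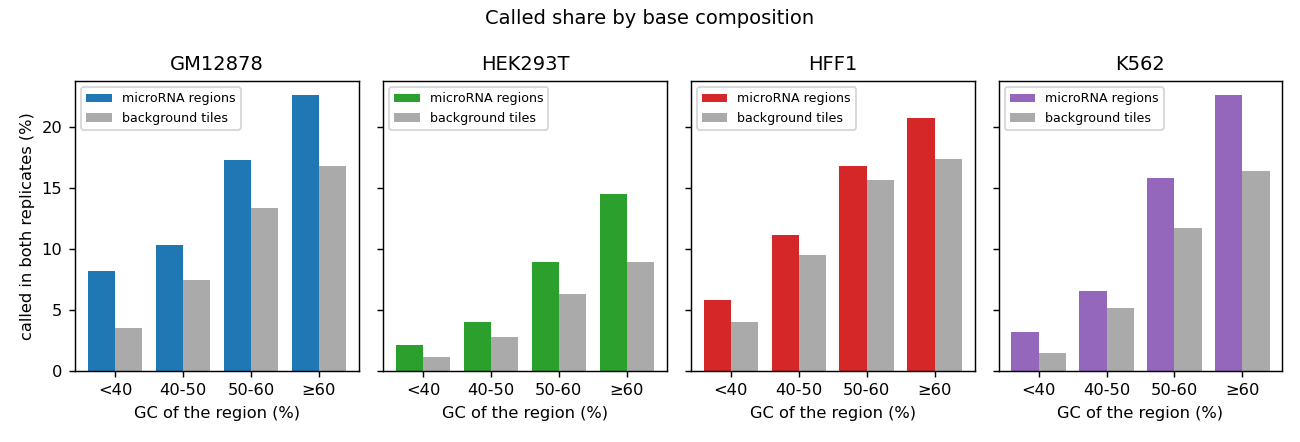
The percent of microRNA regions and of background tiles called in both replicates, by line and by band of GC content. Both rise with GC content in all 4 lines, and the members lie above the tiles in each band.

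The sets of members with a peak were more alike within a line than between lines. The Jaccard index, the shared members divided by the members in either set, was 0.863 between the GM12878 replicates, 0.707 in HEK293T, 0.803 in HFF1 and 0.806 in K562. Between libraries of different lines it was 0.353 ± 0.0411 (SD over 24 library pairs, which share libraries; 0.273 to 0.422). No pair of different lines reached the lowest replicate pair. The difference of the means was 0.441 (exact one-sided permutation p = 0.00952, the smallest possible, adjusted p = 0.0190). HEK293T and K562 had the highest index of the line pairs at 0.406, and HEK293T and HFF1 the lowest at 0.287. Of the 87 members called in HEK293T, 80.5% were also called in GM12878, and these were 37.0% of the 189 members of GM12878.

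Calls fell into a large group of members seen in 1 line and a small group seen in all. Of the 1445 members, 179 were called in exactly 1 line (12.4%, against 8.89% of tiles) and 57 in 2 (3.94%, against 1.93%). A further 37 members were called in 3 lines (2.56%, against 0.916%) and 49 in all 4 (3.39%, against 0.871%). No call in any line was made for 77.7% of members and 87.4% of tiles. The gap to the tiles was widest, as a ratio, for regions open in all 4 lines.

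Regions called in 1 line and with no peak in any library of another line are termed specific to that line. There were 51 in GM12878 (3.53% of members, against 2.48% of tiles), 4 in HEK293T (0.277%, against 0.296%), 59 in HFF1 (4.08%, against 3.81%) and 30 in K562 (2.08%, against 1.05%). In HEK293T and HFF1 the share was near that of the tiles. As a part of all called members, specific regions made up 27.0% in GM12878, 4.60% in HEK293T, 33.0% in HFF1 and 20.7% in K562, each below the 41.9%, 13.4%, 53.7% and 27.9% of called tiles. With the thinned pileups, a mean of 38 regions was specific to GM12878, 8 to HEK293T, 28.8 to HFF1 and 15.9 to K562. Without HEK293T replicate 1, 9 members were specific to that line in place of 4, and without HEK293T replicate 2, 8.

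The members called in all 4 lines differed from the rest in sequence and position. Their median GC content was 57.0%, against 46.4% in members called in 1 line and 45.4% in those called in none. The observed to expected ratio of CpG, which is high in CpG islands, had a median of 0.437 against 0.230 and 0.241. A lncRNA start lay within 1 kb of 17 of the 49 (34.7%), of 16.8% of members called in 1 line and of 10.4% of those called in none, against 2.98% of tiles. The median distance from the nearest protein-coding start was 8248 bp for the 49 members, 23012 bp for those called in 1 line and 35231 bp for those called in none. Members called in 1 line were thus close to members called in none in GC and CpG content, while those called in all 4 were not.

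The strongest regions open in all 4 lines were led by MIR4449 (chr4:52712682-52712747, in an exon of the lncRNA gene DANCR). Its best peaks had folds over the local background of 10.3 and 10.0 in GM12878, 18 and 18.2 in HEK293T, 11.3 and 12.6 in HFF1, and 10.7 and 10.9 in K562. These folds are the authors' own values per peak and are given to describe each list, since depth differs between lists. MIR1302-3 had folds of 13.2 to 16.3 and MIR4757 of 8.64 to 12.5 over the 8 libraries. MIR210 (chr11:568089-568198, in an intron of MIR210HG), which encodes a microRNA induced by low oxygen, had folds of 8.86 to 12. At MIRLET7I (chr12:62603686-62603769), whose let-7 product restrains growth genes, the folds were 8.73 and 8.86 in GM12878, 10.5 and 10.6 in HEK293T, 7.57 and 7.22 in HFF1, and 7.95 and 8.21 in K562. MIR153-1, in an intron of PTPRN, had folds of 7.52 to 11.7. An annotated lncRNA start lies within 1 kb of each of MIR4449, MIR1302-3, MIR4757, MIR210 and MIRLET7I, while for MIR153-1 the nearest is 4.8 kb away.

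Calls were found in every genomic context. Of the members, 720 lie inside a protein-coding gene on the same strand, 313 inside a lncRNA gene on the same strand, 130 inside a protein-coding gene on the opposite strand and 282 outside these. At least 1 line called 154 (21.4%), 70 (22.4%), 40 (30.8%) and 58 (20.6%) of them, beside 12.6% of tiles. Members with a lncRNA start within 1 kb (180) were called in 21.7% of cases in GM12878, 15.0% in HEK293T, 20.6% in HFF1 and 20.0% in K562, against 12.7%, 6.46%, 15.5% and 10.8% of tiles with such a start. The other members were called in 11.9%, 4.74%, 11.2% and 8.62% of cases, against 5.71%, 2.08%, 6.85% and 3.54% of tiles. The excess over the tiles was present with and without a lncRNA start nearby. Calls also fell with distance from a protein-coding start. In GM12878, 19.6% of members under 10 kb away were called, 14.2% of those at 10 to 50 kb and 7.52% of those farther away, and in K562 the shares were 16.6%, 10.4% and 5.14%.

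The starts of the host gene and the region of the hairpin were compared for 1033 members inside a host gene on the same strand. A host start was called when each replicate had a peak within 1 kb of any annotated start of any such host. The 2 replicates could differ in the start, and hosts with many starts meet this rule more easily. In GM12878 the host start was called for 726 of them, of which 16% had a called hairpin region, against 3.58% of the 307 whose host start was not called. The corresponding shares were 7.63% and 2.37% in HEK293T, 14.8% and 1.54% in HFF1, and 11.9% and 4.32% in K562. Without the members near a lncRNA start, the pairs were 13.5% and 4.31%, 5.40% and 2.30%, 12.8% and 1.53%, and 9.23% and 5.02%. A host start called by this rule thus went with an open hairpin region in each line, yet more than 4 in 5 hairpin regions with such a start had no call. The part of the number of starts per host was not tested. MIR17HG, which carries the growth-promoting miR-17 cluster, had a called start in all 4 lines, and none of its 6 hairpin regions had a peak.

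Lists of microRNAs with known roles held 143 genes, of which 126 are members and 17 lie too near a protein-coding start. At least 1 line called 42 of the 126, and 76 had no peak in any library. GM12878 called 26 (20.6%, beside 13.1% of all members), HEK293T 9 (7.14%, beside 6.02%), HFF1 19 (15.1%, beside 12.4%) and K562 24 (19%, beside 10.0%). The K562 count was 11.1 with thinned pileups and 10 without the members near a lncRNA start, and the GM12878 and HEK293T counts without those members were 15 and 2.

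**Figure D3:**
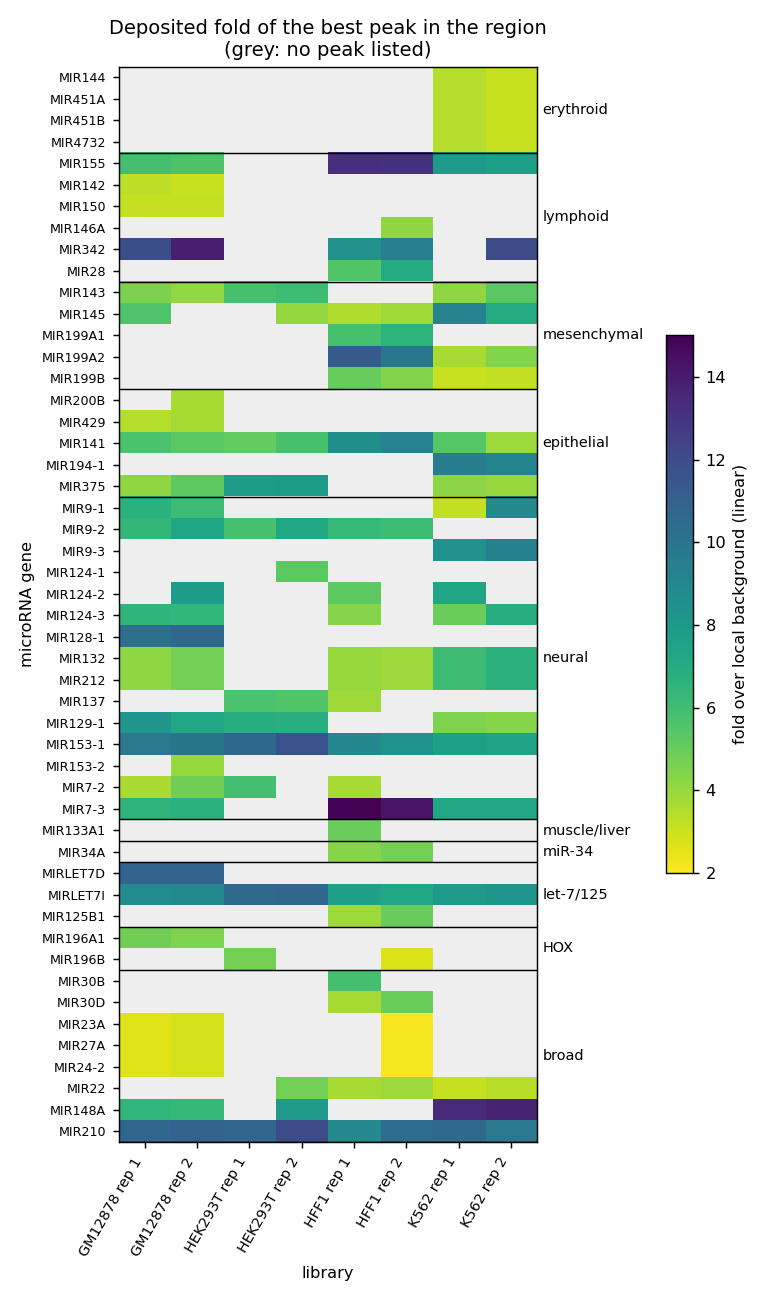
Fold of the best deposited peak at each listed microRNA gene with a peak, by library and list. Grey cells had no peak. The 4 erythroid genes are filled in K562 alone, MIR142 and MIR150 in GM12878 alone, and MIRLET7I, MIR141, MIR210 and MIR153-1 in all 8 libraries.

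The erythroid list was called in K562 alone. MIR144 (chr17:28861533-28861618), MIR451A, MIR451B and MIR4732 are neighbours whose widened regions share 1 peak, with folds of 3.45 and 3.10 in the K562 libraries, and no other library had a peak there. The peak lies outside the MIR451A and MIR451B hairpins. miR-144 and miR-451a are processed from 1 transcript that is abundant in red cell precursors. The start of the lncRNA gene that holds MIR144 was likewise called in K562 only. MIR486-1 and MIR486-2, which lie in the ankyrin gene ANK1, had no peak in any library, so 4 of 6 members were called, all through 1 peak. The peak is weak: thinned to the background level of HEK293T, it was kept in 4 of 11 draws of each K562 library, so a peak of that size in HEK293T could have been missed.

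Of the 10 lymphoid members, GM12878 called 4 (40%), HFF1 3 (30%), K562 1 (10%) and HEK293T none, beside 13.1%, 12.4%, 10.0% and 6.02% of all members. MIR142 (chr17:58331232-58331318), a blood-wide microRNA, had folds of 3.29 and 3.10 in GM12878 and no peak elsewhere. The start of its host gene MIR142HG was called in GM12878 and also in K562. MIR150 (chr19:49500785-49500868), which rises in mature lymphocytes, had folds of 3.16 and 3.14 in GM12878 and no peak elsewhere. After thinning to the level of HEK293T, MIR142 kept its peak in 11 and 10 of 11 draws of the GM12878 libraries and MIR150 in 6 of 11 draws of each. MIR342 lies in EVL and had folds of 11.9 and 13.9 in GM12878, 8.40 and 9.38 in HFF1 and 12 in K562 replicate 2, with no peak in K562 replicate 1. MIR28 had folds of 5.52 and 7.00 in HFF1 only, and thinning kept a peak there in 6 and 5 of 11 draws of the HFF1 libraries. The list was therefore not open in GM12878 alone, and its 4 MIR181 genes had no peak in any library.

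MIR155 had peaks at 2 places in its region, of which 1 was found in GM12878 only. miR-155 is made from the lncRNA MIR155HG and is abundant in activated B cells. The folds at MIR155 (chr21:25573980-25574044, in an exon of MIR155HG) were 5.84 and 5.63 in GM12878, 13.2 and 13.1 in HFF1, and 7.94 and 7.68 in K562, with no peak in HEK293T. These are the best peaks. In GM12878 their summits lay at −931 and −933 bp from the middle of the hairpin, that is, before it, and each library had a second peak at the hairpin, with folds of 4.28 and 4.54 and summits at −17 and 3 bp. In HFF1 the only peaks had summits at 73 and 53 bp and in K562 at 61 and 91 bp. The place at the hairpin was thus open in 3 lines, and at the upstream place a peak reached into the region in GM12878 alone. The 101 bp around the summits are shown from the hg38 plus strand, which is the strand of MIR155, to make the 2 places visible.
MIR155, HFF1 replicate 1, chr21:25574035-25574135: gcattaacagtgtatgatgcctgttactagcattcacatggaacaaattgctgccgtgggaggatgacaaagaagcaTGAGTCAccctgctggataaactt
MIR155, GM12878 replicate 1, chr21:25573031-25573131: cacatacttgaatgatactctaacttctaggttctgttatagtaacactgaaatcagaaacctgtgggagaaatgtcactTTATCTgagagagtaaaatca
Capitals mark matches to any of 7 searched words, here TGANTCA of AP-1 in the HFF1 window and AGATAA of GATA factors, read on the minus strand, in the GM12878 window. After thinning, the libraries of GM12878 and HFF1 kept a peak at MIR155 in all 11 draws, and those of K562 in 2 and 8. The MIR155HG start was called in GM12878 and HFF1 and not in K562 or HEK293T.

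Of the 16 mesenchymal members, HFF1 and K562 called 4 each (25%) and GM12878 and HEK293T 1 each (6.25%), and 11 had no peak in any library. Of all members, HFF1 called 12.4%, K562 10.0%, GM12878 13.1% and HEK293T 6.02%. The 3 loci that make miR-199a or miR-199b were called in HFF1. MIR199A1 (chr19:10817426-10817496, opposite DNM2) had folds of 5.79 and 6.60 in HFF1 and no peak elsewhere. MIR199A2 (chr1:172144535-172144644, in an exon of DNM3OS) had folds of 11.2 and 9.91 in HFF1 and of 3.71 and 4.45 in K562. MIR199B (opposite DNM1) had folds of 5.03 and 4.46 in HFF1 and of 3.07 and 3.18 in K562. At equal background the HFF1 peaks of the 3 loci were kept in 10 or 11 of 11 draws, and the K562 peaks of MIR199A2 in 3 and of MIR199B in 4 draws of each library. A lncRNA start lies in the region of MIR199A2, so its peaks and those at the start of DNM3OS, called in HFF1 and K562 only, are not separate observations. MIR214, from the same transcript, had no peak.

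The MIR143 and MIR145 pair, which favours the contractile state of smooth muscle, did not follow the fibroblast line. MIR143 (chr5:149428918-149429023, in an exon of CARMN) had folds of 4.54 and 4.13 in GM12878, 5.77 and 6.04 in HEK293T, and 4.15 and 5.34 in K562, and no peak in HFF1. MIR145, in an intron of the same gene, had folds of 3.53 and 3.86 in HFF1 and 9.22 and 7.02 in K562, and a peak in 1 of 2 libraries of GM12878 (5.56) and of HEK293T (4.05). The CARMN start was called in GM12878 and HFF1.

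The neural list had the most calls. Of its 18 members, GM12878 called 10 (55.6%), K562 8 (44.4%), HFF1 5 (27.8%) and HEK293T 4 (22.2%), and 3 had no peak. All 4 shares lie above those of all members. None of the 4 lines is neural. The called regions ranged widely in GC, from 34.7% at MIR128-1 and 44.1% at MIR9-2 to 68.3% at MIR132 and 74.3% at MIR124-3, and the part of base composition in these calls was not tested. Folds at MIR124-3 were 6.5 and 6.39 in GM12878, 4.96 and 6.91 in K562 and 4.35 in 1 HFF1 library. In K562 each library had 2 peaks after the hairpin, at 509 and 844 bp in replicate 1 and at 507 and 910 bp in replicate 2, and the best one differed between replicates. The 3 loci of miR-9, which make the same mature sequence, had 3 different patterns. MIR9-1 (chr1:156420341-156420429) had folds of 6.72 and 6.10 in GM12878 and of 3.19 and 8.90 in K562, where each library had 1 peak and the 2 were apart, at 281 and −1433 bp from the hairpin, so neither place was found in both replicates. MIR9-2 (chr5:88666853-88666939) had folds of 6.37 and 7.36 in GM12878, 5.77 and 7.21 in HEK293T and 6.28 and 6.04 in HFF1, and none in K562. MIR9-3 (chr15:89368017-89368106) had folds of 8.43 and 9.31 in K562 and no peak elsewhere.

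Other neural members were called in 1 to 3 lines. MIR128-1, in an intron of R3HDM1, had folds of 10.2 and 10.6 in GM12878 only, while its host start was called in all 4 lines. MIR137 had folds of 5.72 and 5.52 in HEK293T and a peak of 3.87 in 1 HFF1 library. The HEK293T place found in both replicates lay at 698 and 781 bp after the hairpin (5.24 and 5.52), while the best peak of replicate 1 was at −92 bp and had no counterpart. A lncRNA start lies in this region too, and the start of MIR137HG was called in HEK293T only. MIR129-1 was called in GM12878 (8.23 and 7.18), HEK293T (6.91 and 6.85) and K562 (4.50 and 4.37). MIR132 and MIR212 share 1 peak, called in GM12878 (4.23 and 4.71), HFF1 (3.99 and 3.90) and K562 (6.08 and 6.63). MIR7-3 had folds of 6.57 and 6.71 in GM12878, 14.9 and 14.3 in HFF1, and 7.26 and 7.24 in K562.

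Of the 12 epithelial members, GM12878 and K562 called 3 each (25%), HEK293T 2 (16.7%) and HFF1 1 (8.33%). Of all members, GM12878 called 13.1%, K562 10.0%, HEK293T 6.02% and HFF1 12.4%. MIR141, of the miR-200 family that restrains the epithelial to mesenchymal change, had a peak in all 8 libraries with folds of 3.97 to 9.23, and its summits lay 1079 to 1121 bp after the hairpin. MIR375 had folds of 4.17 and 5.21 in GM12878, 7.79 and 7.94 in HEK293T and 4.25 and 4.00 in K562. MIR429 was called in GM12878 only (3.46 and 3.76) and MIR194-1 in K562 only (9.53 and 9.12). After thinning, MIR429 kept a peak in 5 and 7 of 11 draws of the GM12878 libraries, and MIR194-1 in 10 and 9 of those of K562. Among 13 members of the let-7, miR-100 and miR-125 families, MIRLET7I was called everywhere, MIRLET7D in GM12878 only (10.9 and 10.9) and MIR125B1 in HFF1 only (3.88 and 5.04). Thinning kept a peak at MIRLET7D in all 11 draws of the GM12878 libraries, and at MIR125B1 in 5 and 10 of those of HFF1.

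Calls were also found in other lists. In the list of 5 members that brake the cell cycle, MIR34A, a target of p53, was called in HFF1 only (4.37 and 4.72). After thinning to the background level of HEK293T, MIR34A kept a peak in 0 and 2 of 11 draws of the HFF1 libraries. A peak of that size in HEK293T could thus have been missed. Of the 2 HOX members left by the rule, MIR196A1 was called in GM12878 (4.83 and 4.52), and thinning kept a peak there in 7 of 11 draws of each GM12878 library. Of 17 members known to be broadly expressed, GM12878 called 5 (29.4%), HFF1 and K562 3 each (17.65%) and HEK293T 1 (5.88%). Of all members, GM12878 called 13.1%, HFF1 12.4%, K562 10.0% and HEK293T 6.02%. In GM12878, 3 of the 5 (MIR23A, MIR27A and MIR24-2) rest on 1 peak, which thinning kept in 6 and 5 of 11 draws of the GM12878 libraries. Among the 17, MIR148A had a peak at the hairpin in both GM12878 libraries (6.42 and 6.33) and both K562 libraries (5.14 and 5.84). K562 also had a peak at −1338 and −1339 bp (13.4 and 13.7), HEK293T replicate 2 had one at −1245 bp (7.97), and GM12878 had no peak reaching into the region there. MIR22 was called in HFF1 (3.69 and 3.92) and K562 (3.15 and 3.42).

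No member was called of the 10 muscle and liver genes, the 8 genes typical of pluripotent cells or the 9 genes of the miR-17 family. Of these, 9, 8 and 9 had no peak in any library. Over all members 77.7% were called in no line, and many of these hairpins sit together in clusters, so they are few independent places. The chromosome 19 cluster, a primate array expressed in placenta, had no peak at any of its 44 hairpins. In the imprinted chromosome 14 cluster, 50 of 51 had none, and MIR136 was called in HFF1 (7.28 and 6.13).

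Loci that make the same mature microRNA could differ in their calls. There were 97 distinct sets of members with an identical mature sequence. Of these, 21 had a called locus, and in 17 of the 97 the loci differed in the lines that called them. No set of unrelated members was compared. Beside the miR-9 and miR-199 sets, MIR125B1 was called in HFF1 and MIR125B2 in no line, MIR128-1 in GM12878 and MIR128-2 in no line, and MIR194-1 in K562 and MIR194-2 in no line. The mature sequence alone does not tell these loci apart. The hairpin is identical at another autosomal locus for 74 members, and short reads can be placed wrongly between such copies.

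The regions specific to 1 line were led in GM12878 by MIR4477A (chr9:41233755-41233835), with folds of 24.5 and 25.8. MIR3975 in GALNT1 followed with 14.4 and 15.5, MIR139 in PDE2A with 11 and 9.53, and MIR4269 opposite HDAC4 with 10.6 and 11.1. MIR3680-1 (7.40 and 7.48) and MIR5194 (12 and 11.3) complete the 6. The hairpin of MIR3680-1 is identical at 1 other locus, so the caution on such copies applies to it. In HEK293T the 4 were MIR3666 in FOXP2 (9.49 and 11.1), MIR4428 in RYR2 (13.6 and 11.7), MIR1268A (6.56 and 8.35) and MIR4537 (5.57 and 4.42). In HFF1 the strongest were MIR4744 in DYM (10.2 and 10.7), MIR4423 (12.4 and 12.3), MIR5572 in an exon of ARNT2 (12.2 and 11.1), MIR4289 (6.21 and 6.86), MIR199A1 and MIR3611 in CUL2 (13.7 and 13.1). In K562 they were MIR1205 in the lncRNA gene PVT1 (8.52 and 8.68), MIR182 (5.72 and 6.46), MIR9-3, MIR4729 in YPEL2 (9.81 and 9.39), MIR194-1 and the overlapping pair MIR4659A and MIR4659B (7.41 and 6.96). Most lie inside larger genes, and MIR194-1, MIR199A1 and MIR9-3 are those among them that were on a list of known roles.

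**Figure D4:**
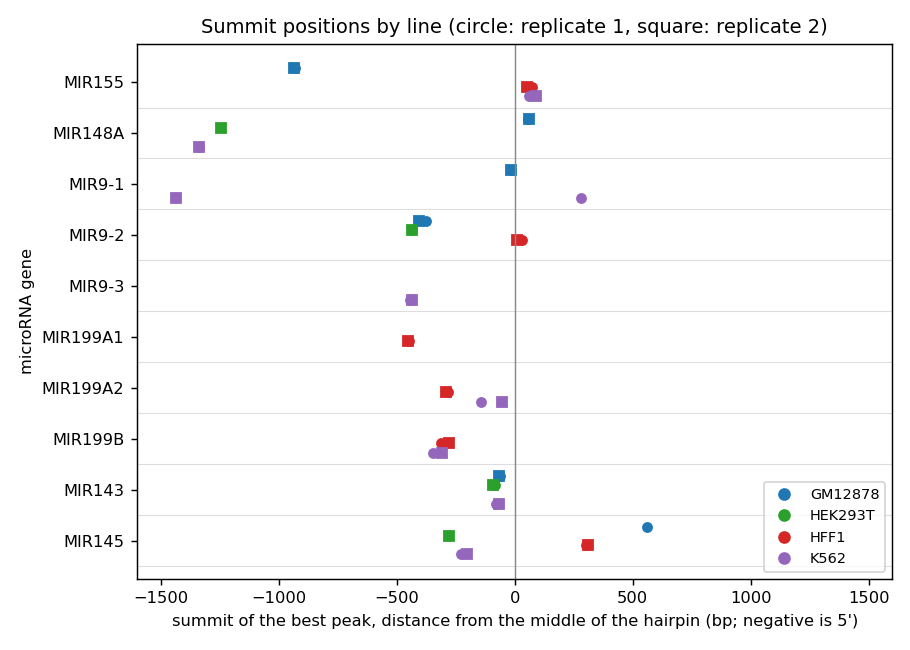
Position of the summit of the best peak of each library, other peaks left out, relative to the middle of the hairpin, in bp along the strand of the gene, at named microRNA genes, by library. Negative values lie before the hairpin. At MIR155 the GM12878 summits lie at −931 and −933 bp and those of HFF1 and K562 within 91 bp after it.

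The hairpin takes up a small part of its region. It overlapped a peak in both replicates at 47 members in GM12878 (24.9% of those called), 19 in HEK293T (21.8%), 44 in HFF1 (24.6%) and 42 in K562 (29.0%). Cover was higher on the 5′ side. Averaged over the 1 kb before the hairpin, 3.13% ± 0.0612 of members were covered in GM12878, against 2.32% ± 0 over the 1 kb after it. The pairs were 1.35% ± 0.0685 and 0.728% ± 0.0318 in HEK293T, 3.07% ± 0.147 and 2.43% ± 0.193 in HFF1, and 2.52% ± 0.0514 and 1.56% ± 0.0489 in K562 (SD, n = 2). All 8 libraries had more on the 5′ side. Among the 1265 members without a lncRNA start within 1 kb, the ratio of the 5′ to the 3′ side fell from 1.35 to 1.19 in GM12878, from 1.85 to 1.33 in HEK293T, from 1.26 to 0.954 in HFF1 and from 1.61 to 1.36 in K562. The 5′ excess was thus absent in HFF1 once those members were left out.

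**Figure D5:**
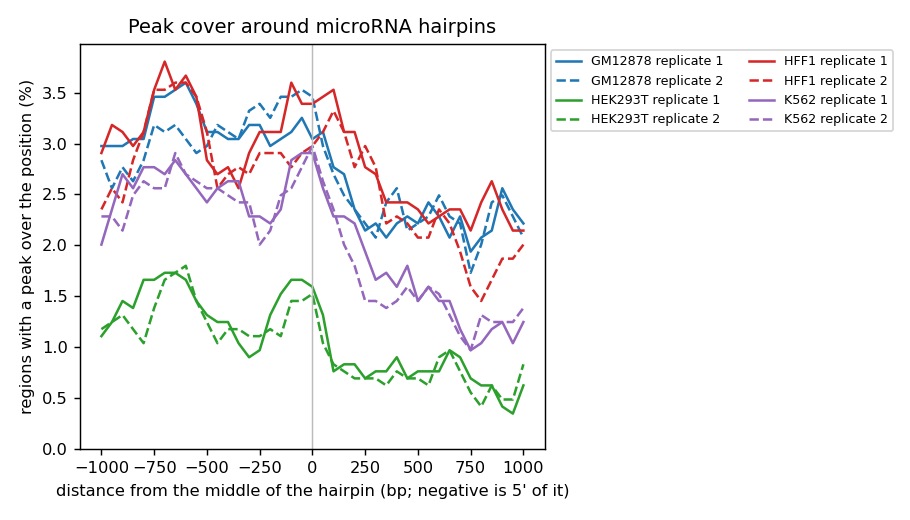
Percent of the 1445 microRNA genes covered by a peak at each distance from the middle of the hairpin, in bp along the strand of the gene. Each curve is 1 library, solid for replicate 1 and dashed for replicate 2. On average over the 1 kb on either side, cover is higher before the hairpin than after it in all 8 libraries, and at the middle it is 3.25% ± 0.294 in GM12878 and 1.56% ± 0.0489 in HEK293T (SD, n = 2).

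The strength of the peaks is given as a description. For each library, the best peak of each member with a peak in it is set beside all distal peaks. The distal peaks were not chosen as the best of a region. The median fold of the best peak at members with a peak was 7.17 ± 0.0460 in GM12878, beside 7.18 ± 0.0132 for all distal peaks. The values were 8.25 ± 0.0927 and 7.87 ± 0 in HEK293T, 6.69 ± 0.118 and 6.47 ± 0.0884 in HFF1, and 6.54 ± 0.132 and 6.04 ± 0.164 in K562 (SD, n = 2).

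The letters under the specific peaks were searched, on both strands of the 101 bp around the summit, for 7 words. These were AGATAA of GATA factors, TGANTCA of AP-1, TGTGGTT of RUNX, AGAGGAA of PU.1, GGAATG of TEAD, CCAAT of NFY and GGGCGG of SP and KLF factors, and no word contains another. The member peaks are the best peaks of regions specific to a line. The distal peaks beside them are all those of 1 library that overlap no peak of another line. These needed no peak in the other replicate, so the 2 sets were not chosen alike. AGATAA occurred in 9 of 26 K562-specific peaks (34.6%) in each replicate, beside 18.2% and 19% of all distal K562-specific peaks. TGANTCA occurred in 8 and 11 of 59 HFF1-specific peaks (13.6% and 18.6%), beside 22.6% and 22.8%. GGGCGG occurred in 7 and 6 of 49 GM12878-specific peaks (14.3% and 12.2%), beside 2.31% and 2.33%. The same word was also above the distal share in HFF1 (8.47% in each replicate, beside 2.04% and 2.06%) and in K562 replicate 1 (15.4%, beside 6.96%). In K562 replicate 2 it was near that share (7.69%, beside 7.39%). The RUNX and PU.1 words, of factors active in B cells, were below the distal share in both GM12878 replicates. The RUNX word had 2.04% in each, beside 7.27% and 7.18%. The PU.1 word had 4.08% beside 7.65% in replicate 1 and 6.12% beside 7.46% in replicate 2. These counts are small and were not tested, and a match does not show that a factor was bound.

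The windows at 3 of these genes, each open in 1 line, show the words in capitals, from the hg38 plus strand. They are examples that hold searched words and were not chosen by a rule. Most K562-specific peaks hold no AGATAA.
MIR194-1, K562 replicate 1, chr1:220119195-220119295: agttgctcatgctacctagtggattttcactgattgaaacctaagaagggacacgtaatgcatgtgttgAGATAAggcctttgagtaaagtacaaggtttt
MIR4729, K562 replicate 1, chr17:59365696-59365796: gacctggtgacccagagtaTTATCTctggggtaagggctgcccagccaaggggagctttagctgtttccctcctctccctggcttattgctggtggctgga
MIR199A1, HFF1 replicate 1, chr19:10817858-10817958: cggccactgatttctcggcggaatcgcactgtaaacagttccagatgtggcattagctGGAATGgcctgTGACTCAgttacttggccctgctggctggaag
The K562 windows hold AGATAA on opposite strands, and the HFF1 window holds GGAATG and an AP-1 word. None of the 3 windows overlaps an annotated exon.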

How the data were processed

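Per the submitters' processing notes, the tools were cutadapt 3.2, Bowtie2 2.4.2, Picard and MACS2 2.2.7.1, with no roles given. Chromosome names and lengths fit hg38. The authors deposited 1 list of peaks per library in a layout of 10 columns. The fold (a ratio over local background), −log10 p and −log10 q values are deposited by the authors, and were used only to rank or describe peaks within a list. The lists hold no read counts, so depth was taken from the lowest background, recovered from each fold and −log10 p, which solved 99.85% to 100% of peaks.

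Python 3.11.15 with NumPy 2.4.6, pandas 2.3.3 and SciPy 1.17.1 was used. Regions, tiles of the same length and other small RNA genes were intersected with each list at a minimum overlap of 1 bp. GENCODE release 44 gave genes and starts. Libraries were grouped by their labels. Values per library were compared with exact permutation tests over all pairings of the 8 libraries, with Benjamini-Hochberg adjustment over 4 tests. Counts of called members are read against tiles, with no test. The test scripts were tested on simulated data. Libraries with the same number did not deviate together (correlations of −0.028 to 0.031), so they were not treated as pairs.

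Named genes are those of the role lists, the 6 specific to each line with the highest −log10 p in the weaker replicate, and the 10 called in all 4 lines with the highest lowest −log10 p. Genes outside this rule, such as MIR136, were chosen after their values were seen. The members and lists were chosen with earlier results of these data known. Alternatives changed the flank, the peak threshold, the rule on starts, the depth (11 random draws of thinned pileups) and the libraries used.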

Additional observations from a re-analysis of the deposited data

How the results depend on the processing

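The 3 permutation tests between lines kept an unadjusted p below the threshold under every alternative run. A share of variance cannot be negative, so of the 3 only the Jaccard difference has a direction, and it stayed positive. The tests do not address the order of the lines, which moved. The ratio of called members to called tiles was 2.72 in HEK293T and 2.67 in K562, and 2.72 and 3.22 after thinning. Adjusted over the tests of each setting, the share of members passed the threshold in all but 1, with p = 0.0635 with no flank (exact permutation). The other 2 tests passed it in all. With the replicate block, which the labels' numbers allow but the deviations of the libraries did not bear out, the share of variance between lines was 0.999 for the share of members and 0.986 for its log2 ratio to tiles, and the Jaccard difference was 0.443 (exact permutation p = 0.0417 each, the smallest possible). The sign-flip test cannot pass its threshold in this design.

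Counts moved with the width of the region, as that width sets what is counted. With no flank, 47, 19, 44 and 42 members were called in GM12878, HEK293T, HFF1 and K562 and 8 in all 4, with 17, 2, 16 and 8 specific to a line and 11, 2, 7 and 9 listed genes called. With a flank of 2000 bp, 301, 144, 292 and 232 were called and 82 in all 4, with 93 specific to HFF1 and 44, 26, 36 and 44 listed genes. With a flank of 500 bp, 47 were called in HEK293T, 28 in all 4 lines and 5 listed genes in HEK293T.

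Depth limits the counts too. With the 50000 strongest peaks of each library, 113 members were called in GM12878 and 97 in HFF1. There 24, 14 and 27 were specific to GM12878, HEK293T and HFF1, and 16, 11 and 15 listed genes were called in GM12878, HFF1 and K562. With pileups thinned to the lowest background, a mean of 106.5 was called in HFF1 and 87.5 in K562 over 11 draws. There 8, 28.8 and 15.9 were specific to HEK293T, HFF1 and K562, and 11.1 listed genes were called in K562. Leaving out regions with a protein-coding start within 5 kb gave 32 members called in all 4 lines and 14 listed genes in K562. Leaving out those with a lncRNA start within 1 kb gave 32 in all 4 lines and 15, 2, 12 and 10 listed genes. Leaving out each library in turn gave 4 to 9 members specific to HEK293T and moved no other count by over 1.5 times. A −log10 q of at least 5, a summit inside the region, merged regions and a looser rule on starts (1548 members, added after seeing the data) moved no count by that much.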
